A study of Mus musculus with 2 samples.

Results

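The spliceosome, SR and hnRNP genes described here were 59 of the 17097 genes that a single-gene probe set of the array named. They were chosen by symbol alone, from the prefixes Sf3a, Sf3b, Srsf, Snrp, Prpf, U2af and Hnrnp, without Snrpn. The symbols come from the platform annotation. Some genes with these prefixes, such as Hnrnpf, Hnrnpu, Srsf5 and Srsf7, were not analysed here.

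Splicing removes introns from pre-mRNA in the spliceosome, a machine built from small nuclear ribonucleoproteins (snRNPs) and many further proteins. Sm proteins form the ring on which most of these particles are assembled. The SF3a and SF3b complexes are parts of the U2 snRNP, which binds the branch site, and the U2AF dimer marks the 3' splice site. Most proteins with the prefix Prpf act in the U4/U6.U5 tri-snRNP and at the later steps. SR proteins mostly favour the use of nearby exons and hnRNP proteins often oppose it, and in embryonic stem (ES) cells, as in other dividing cells, all of these are widely expressed.

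The cells were mouse ES cells grown without feeders on gelatin, in serum with leukaemia inhibitory factor. The H2A.B KD cells carried a retrovirus with a short hairpin RNA against H2A.B, a short histone H2A variant, and the control KD cells carried one with a control sequence. In both viruses a U6 promoter in the pMSCV-neo vector drove the hairpin, and both cell populations were held in G418 for 2 to 4 weeks. Each group had 1 array, from 2 µg of total RNA. The knockdown sample is titled number 1, with no statement of what the number means. No value below therefore has an error between cultures, no test was possible, and the differences describe these 2 arrays.

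The arrays hold 0 probe sets for the 3 H2A.B genes, so depletion could not be checked on them. ES cell identity could be: all 8 measured ES cell markers passed the intensity filter on both arrays, with log2 intensities of 10.1 to 14.2 on the H2A.B KD array and 10.1 to 14.2 on the control KD array, and 0 of them differed by 2-fold. Of 9 fibroblast and feeder markers, 5 passed, and all 5 were higher on the H2A.B KD array, by up to 0.34 for Vim. Over all 9 the log2 intensities ran between 4.05 and 10.9 on the H2A.B KD array and between 4.14 and 10.6 on the control KD array, with Col1a2 at 4.35 on the H2A.B KD array and 4.34 on the control KD array. None of the 5 endoderm markers passed. Of 5 neural markers 2 passed, Tubb3 at 0.03 and Pax6 at -0.78 on 1 probe set, while its 3 others lay between -0.03 and 0.03. Of 4 mesoderm markers 1 passed, Eomes at -0.11. The part of these markers in the results below was not tested.

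The array values are log2 intensities after RMA, which summarises the probes of each probe set. Each gene is represented by its brightest probe set, and a gene passed the filter when its mean over both arrays reached 6.73, the median over all genes. Intensities of different probe sets depend on the probes, so single genes are compared between the arrays and not with each other. Mean intensity is used over genes only to set the filter and to pick out bright probe sets. Of the 59 genes, 58 had a usable value and 56 passed the filter. Srsf4 had none, because the control value of its single probe set repeats, digit for digit, that of the Mcm2 probe set in the row above. As deposited it read 10.62 on the H2A.B KD array and 10.32 on the control KD array. Prpf38b and Srsf12 were the 2 genes below the filter. The passing gene nearest to it was Prpf40b, with a mean of 7.21, and the nearest below was Prpf38b, with 5.98.

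Splicing genes were at nearly the same intensity on both arrays. Of the 56 past the filter, 0 were at least 2-fold higher on the H2A.B KD array, against 0.676% of all 8282 genes past the filter. None was at least 2-fold lower, against 1.28%, and 0 reached 1.5-fold in either direction, against 5.64%. Differences under 0.5 on the log2 scale were found for 55 of the 56, 98.2% against 92.6% of all genes, and differences under 0.1 for 41, 73.2% against 58.5%. The median difference, H2A.B KD minus control KD, was 0.02 (all genes, -0.0016), with 31 genes above 0 and 25 below. Among all genes 49.3% lay above 0. The median absolute difference was 0.060 for the splicing genes and 0.073 for all genes.

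Most of these genes are read from bright probe sets, and bright probe sets differed less in general. Of the 58 genes with a value, 53 reached the 75th percentile of mean intensity over genes, 8.82. Of these 53, 52 differed by less than 0.5, or 98.1%, against 96.1% of all genes that bright, and 39 by less than 0.1, or 73.6%, against 62.6%. Of all 4141 genes that bright, only 3 were at least 2-fold higher and 17 at least 2-fold lower. A count of 0 among the 53 is therefore near the share over genes and says little about splicing genes. For 1.5-fold no share was taken among genes that bright, so the 5.64% above comes from a dimmer set of genes. Over the 58 genes the arrays correlated with r = 0.997 across genes, which are not independent replicates and share the same 2 hybridisations. Over all 43045 usable probe sets, dim ones included, r was 0.984. The plot of intensities shows both values of each gene.

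**Figure D1:**
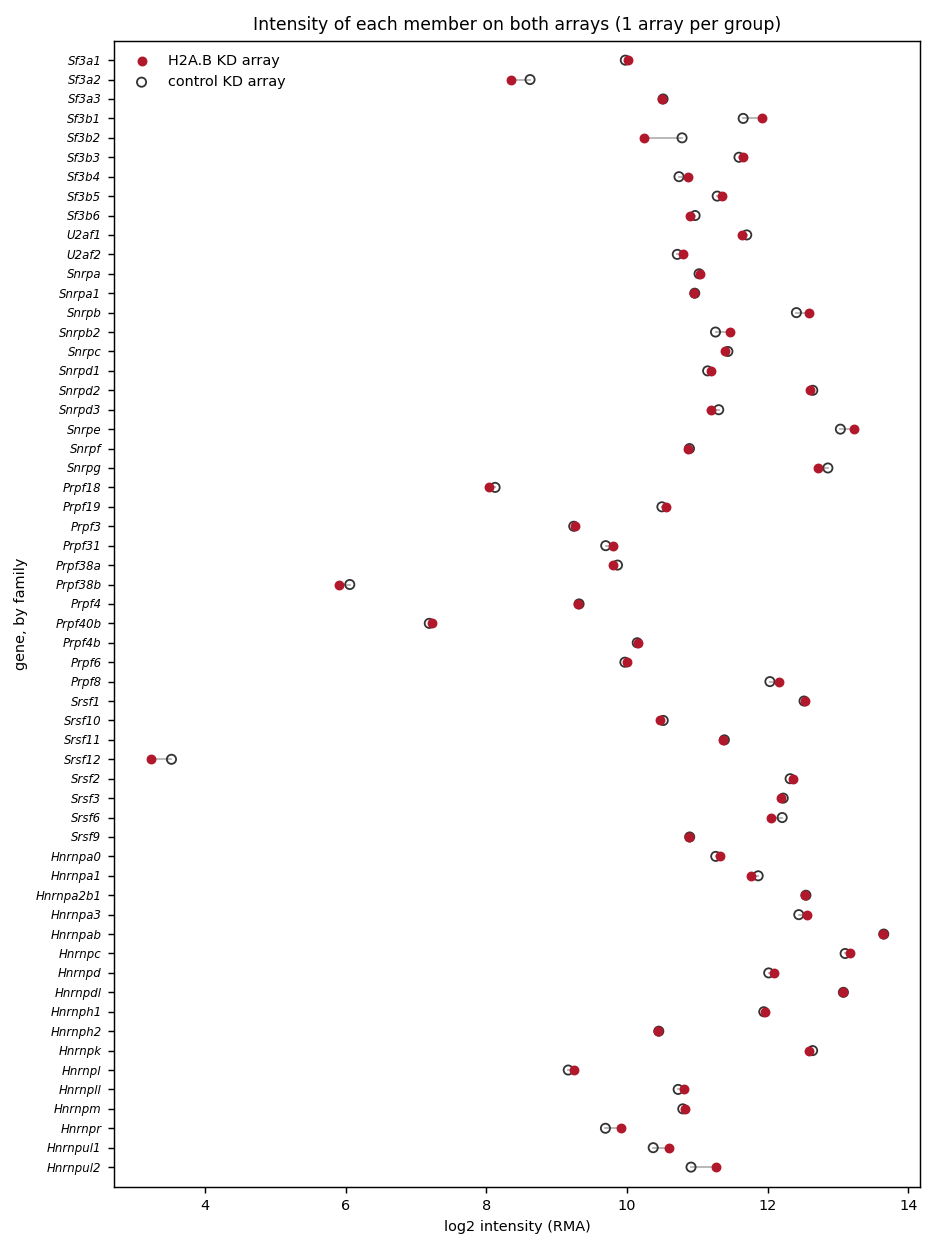
Log2 intensity (x axis) of each of the 58 genes with a usable value (rows, grouped by family) on the H2A.B KD array (filled red points) and the control KD array (open circles), 1 array per group and no error bars. The 2 points overlap or nearly touch for most genes, and Sf3b2, at 10.24 on the H2A.B KD array and 10.78 on the control KD array, shows the widest gap.

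Where a value stood in the deposited table went with its size. The 1455 repeated control values all stand between rows 18185 and 33642. That stretch is the middle section here, with a first section above it and a last section below it. The 37 splicing genes read from the first section had a median absolute difference of 0.037, the 8 of the middle section one of 0.117 and the 11 of the last section one of 0.189. All genes past the filter had 0.044, 0.187 and 0.193 in the same sections. The sizes for splicing genes and for all genes thus followed the same order, and a difference is best read against its own section. The part of the section in any difference was not tested.

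**Figure D2:**
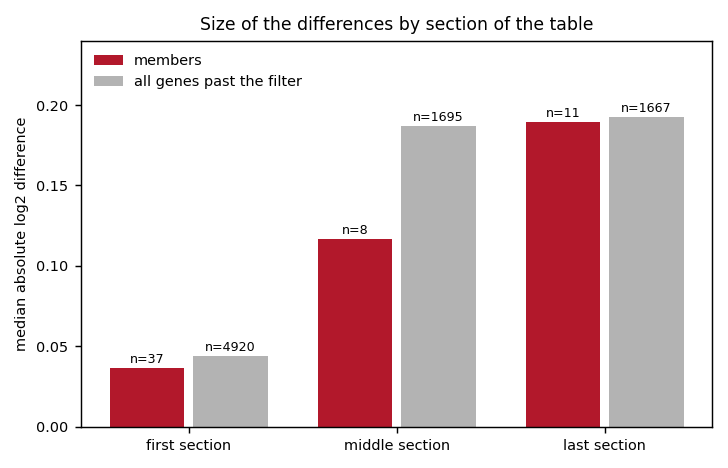
Median absolute log2 difference between the arrays (y axis) by section of the deposited table, for the splicing genes (red) and for all genes past the filter (grey), with the number of genes above each bar. Both are lowest in the first section, at 0.037 and 0.044.

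A second property of the middle and last sections touches several genes below. In the first section 0.827% of differences equalled the difference of another probe set within 1.5e-08 on the log2 scale, about the last deposited digit, while 14.9% did in the middle section and 18.9% in the last. Among usable probe sets of splicing genes the counts were 0 of 72 in the first section, 4 of 28 in the middle and 5 of 33 in the last. The brightest probe sets of Sf3b1, Sf3a1, Snrpe, Snrpb2, Snrpd2, Hnrnpk, Hnrnpul1 and Srsf12 are among these 9, with a dimmer one of Hnrnpa3. The cause was not tested.

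Promoter sequence was in the RefSeq table (GRCm38.p6) for 51 of the 59 genes, and was read over the 250 bases before the first listed start. CpG dinucleotides numbered 4 to 46 per promoter, with a median of 19 for splicing genes, 17 for the 6767 genes past the filter that had a promoter, and 6 for all 27025 genes in the table. At least 10 CpGs were present in 50 of the 51, or 98.0%, against 78.7% of genes past the filter. The exception was Snrpa1, with 4. Such CpG-rich starts are typical of genes expressed in most cell types. Of motifs searched on both strands, CCGGAAG, a core bound by ETS factors, was in 14 of 51 promoters (27.5%, against 15.6% of genes past the filter and 7.05% of all). CCAAT was in 27 (52.9%, against 37.2% and 34.5%), GGGCGG in 34 (66.7%, against 62.1% and 32.9%), TATAAA in 5 (9.80%, against 6.13% and 13.0%) and TGACGTCA in 2 (3.92%, against 3.13% and 1.62%). A match describes letters in a window, not binding.

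Of these promoters 4 are shown, with CpGs in capitals. They are those of Sf3b2, which had the lowest difference, of Sf3b1 and Hnrnpul1, which had the highest among genes with a promoter in the table, and of Hnrnpab, which hardly differed. They lie on the minus strand at chr19:5295458-5295707 (17 CpGs), chr1:55027479-55027728 (16), chr7:25754760-25755009 (22) and chr11:51606882-51607131 (23), in that order.
Sf3b2: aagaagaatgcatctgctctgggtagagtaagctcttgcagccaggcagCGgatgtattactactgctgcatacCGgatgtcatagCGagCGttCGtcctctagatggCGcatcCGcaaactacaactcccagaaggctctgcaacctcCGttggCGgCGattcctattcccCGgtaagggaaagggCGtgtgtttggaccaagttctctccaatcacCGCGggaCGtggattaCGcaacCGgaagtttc
Sf3b1: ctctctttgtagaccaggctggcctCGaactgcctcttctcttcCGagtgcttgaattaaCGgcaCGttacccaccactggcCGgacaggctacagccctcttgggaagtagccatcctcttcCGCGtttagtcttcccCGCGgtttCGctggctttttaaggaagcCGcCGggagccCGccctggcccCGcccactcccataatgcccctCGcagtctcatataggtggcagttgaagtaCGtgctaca
Hnrnpul1: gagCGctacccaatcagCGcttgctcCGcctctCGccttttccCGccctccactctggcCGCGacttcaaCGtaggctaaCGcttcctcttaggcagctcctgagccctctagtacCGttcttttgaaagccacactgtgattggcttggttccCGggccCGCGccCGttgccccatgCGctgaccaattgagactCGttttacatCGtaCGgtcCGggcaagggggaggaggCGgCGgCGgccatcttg
Hnrnpab: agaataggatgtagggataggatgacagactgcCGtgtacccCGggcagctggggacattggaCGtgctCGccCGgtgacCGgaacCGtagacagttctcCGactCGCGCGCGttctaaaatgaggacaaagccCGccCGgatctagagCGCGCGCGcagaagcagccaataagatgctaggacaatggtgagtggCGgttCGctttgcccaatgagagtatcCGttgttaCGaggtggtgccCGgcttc
All 4 hold more than 10 CpGs. They were picked by their differences, and a relation between promoter sequence and difference was not tested.

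The U2 snRNP held the widest spread, and its members lay on both sides of 0. The lowest of them, Sf3b2, was read from the last section and the highest, Sf3b1, from the middle. In both of these sections all genes past the filter differed more than in the first. Sf3b2, an SF3b subunit, had 10.24 on the H2A.B KD array and 10.78 on the control KD array, a difference of -0.54. It is the single gene of the 56 past the filter that differed by more than 0.5. Its probe sets did not go one way: 2 others of the last section were lower too, by -0.43 and -0.49, while the first-section probe set was higher, at 8.56 on the H2A.B KD array and 8.27 on the control KD array (0.29). Of all last-section genes past the filter, 12.7% differed by at least as much as 0.54.

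Sf3b1, the largest subunit, which clamps the branch site helix, had 11.91 on the H2A.B KD array and 11.65 on the control KD array (0.26). This middle-section probe set was its only usable one, since the knockdown values of the other 2 belong to a series of numbers rising by 1. The same difference, within 1.5e-08, occurs on 2 other probe sets, and 35.2% of middle-section genes differed by as much. Sf3b4, which contacts RNA near the branch site, had 10.87 on the H2A.B KD array and 10.74 on the control KD array (0.13), and -0.01 on its other probe set.

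The remaining SF3b genes stayed within 0.1 on their brightest probe sets. Sf3b3 differed by 0.06, and by 0.10 on its dimmer probe set. Sf3b5 had 0.07, with -0.12 and -0.16 on the others, and Sf3b6, whose product lies next to the branch adenosine, had -0.07, with -0.02 and 0.10. Over the 6 SF3b genes the median was 0.06, with 4 above 0 and 2 below.

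SF3a, the partner complex, had a median of -0.02 over 3 genes. Sf3a2, with 1 probe set, had 8.35 on the H2A.B KD array and 8.62 on the control KD array (-0.27), a size reached by 37.7% of last-section genes. Sf3a1 had 10.02 on the H2A.B KD array and 9.98 on the control KD array (0.04), but this is its second brightest probe set. The brightest one, at 11.54 on the control KD array, has a knockdown value in the rising series, and a dim one at 3.35 on the H2A.B KD array and 3.90 on the control KD array differed by -0.54. Sf3a3 differed by -0.02 and -0.09 on its 2 probe sets, with 10.49 on the H2A.B KD array and 10.51 on the control KD array on the brighter.

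The proteins specific to U2 and U1 lie beside the Sm ring. Snrpb2, which encodes the U2 protein B'', had 11.46 on the H2A.B KD array and 11.26 on the control KD array (0.20) on its brightest probe set. A second one, just under the filter, had 6.98 on the H2A.B KD array and 6.03 on the control KD array. That difference of 0.96 was the largest of all 133 usable probe sets of splicing genes, and the dimmest one differed by 0.13. Snrpa1, for the U2 protein A', differed by -0.0084, 0.03 and 0.0036 on 3 probe sets that are all in the first section. The U1 genes Snrpa and Snrpc differed by 0.01 and -0.04, and the dim second probe set of Snrpc by -0.0050. Prpf40b, related to a U1-associated factor of yeast, differed by 0.04.

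The dimer that recognises the 3' splice site was measured in the first section on 1 probe set each. U2af1, whose product reads the terminal AG, had 11.63 on the H2A.B KD array and 11.70 on the control KD array (-0.07). U2af2, whose product binds the polypyrimidine tract, had 10.79 on the H2A.B KD array and 10.72 on the control KD array (0.08). The 2 subunits lay on opposite sides of 0 by about the same amount.

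The 7 Sm ring genes stayed within 0.2, with 3 above 0 and 4 below and a median of -0.01. Snrpe had 13.22 on the H2A.B KD array and 13.03 on the control KD array (0.19), and Snrpb had 12.59 on the H2A.B KD array and 12.41 on the control KD array (0.18). Snrpb has a close relative in Snrpn, and its bright probe set carries the s suffix of sets that can detect several transcripts. The dim Snrpb probe set differed by 0.15.

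On the other side, Snrpg had 12.72 on the H2A.B KD array and 12.86 on the control KD array (-0.14), with -0.15 on its other probe set. Snrpd3 differed by -0.11, with -0.0063 and 0.08 on 2 dim probe sets. Snrpd1 (0.05), Snrpd2 (-0.04) and Snrpf (-0.01) were closer to 0. Subunits of a ring that assembles in equal numbers spanned -0.14 to 0.19, with the ends in the middle and last sections and the 3 first-section genes between -0.11 and 0.05. Over all 11 Snrp genes the median was -0.0084.

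The Prpf genes, mostly of the tri-snRNP and the later steps, lay close to 0. Under 0.1 were 58.5% of all genes past the filter and 81.2% of those of the first section, where most Prpf genes were read. Of 10 Prpf genes past the filter, 9 differed by less than 0.1 and the median was 0.02. Prpf8, the U5 protein at the centre of the catalytic core, was the exception, with 12.16 on the H2A.B KD array and 12.03 on the control KD array (0.13). It has 1 probe set, and 13.1% of first-section genes differed by as much. Prpf31, a gene of the U4/U6.U5 tri-snRNP, had 9.80 on the H2A.B KD array and 9.70 on the control KD array (0.10), and 0.0030 on its dimmer probe set. Prpf18, which acts at the second catalytic step, had 8.04 on the H2A.B KD array and 8.13 on the control KD array (-0.09).

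The U4/U6 proteins Prpf3 and Prpf4 differed by 0.01 and -0.01, with -0.0062 on the dimmer Prpf4 probe set. Prpf6, which bridges U5 and U4/U6, differed by 0.03 and by -0.03 on a dim probe set. The kinase gene Prpf4b had 6 usable probe sets, and all of them lay between -0.05 and 0.02. Prpf19, the ubiquitin ligase of the complex named after it, differed by 0.06, with 0.05 and -0.0030 on the others. Prpf38a, a factor of spliceosome activation, differed by -0.07. Its relative Prpf38b, below the filter, had 5.91 on the H2A.B KD array and 6.06 on the control KD array (-0.15), with -0.05 on its other probe set.

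SR protein genes lay close to 0 on their brightest probe sets, with 6 of 7 within 0.1, 2 above 0, 5 below and a median of -0.01. Most of them were read from the first section. Of all genes past the filter, 81.2% were within 0.1 in that section and 58.5% over all sections. Srsf1, which acts in both constitutive and alternative splicing, had 12.54 on the H2A.B KD array and 12.52 on the control KD array (0.02), and its other 3 probe sets ranged from -0.10 to 0.03. Srsf3 differed by -0.03, and all 6 of its probe sets were between -0.05 and -0.0046. Srsf10, a splicing repressor when dephosphorylated, had 10.47 on the H2A.B KD array and 10.52 on the control KD array (-0.04), and all 4 of its probe sets lay below 0, down to -0.09. Srsf9, with 1 probe set, differed by -0.01.

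For Srsf6, Srsf2 and Srsf11 the probe sets disagreed. Srsf6 had 12.05 on the H2A.B KD array and 12.21 on the control KD array (-0.16) on its brightest, middle-section probe set. The next one, from the first section, went the other way, with 8.52 on the H2A.B KD array and 8.04 on the control KD array (0.48), and the 2 below the filter were at -0.35 and -0.47. Srsf2 had 12.36 on the H2A.B KD array and 12.32 on the control KD array (0.04), with -0.13, -0.05 and -0.02 on probe sets past the filter and 0.40 on a dim one. Srsf11 had 11.37 on the H2A.B KD array and 11.39 on the control KD array (-0.01), and a dim probe set at 5.66 on the H2A.B KD array and 4.80 on the control KD array (0.86). Many SR genes make more than 1 transcript form, and the files do not say which form each of these probe sets detects.

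Srsf12 was not measurable above the filter, with 3.23 on the H2A.B KD array and 3.52 on the control KD array (-0.29). That difference equals, within 1.5e-08, the one of the Hnrnpul2 probe set whose control value is a repeat.

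The 17 hnRNP genes all passed the filter. Their median was 0.06, with 11 above 0 and 6 below, and 13 were within 0.1. With the median over the probe sets of each gene it was 0.015, and with the first section alone 0.032. Most of the 17 were read from the first section. There 81.2% of all genes past the filter were within 0.1, against 58.5% over all sections. Hnrnpul2, related to the scaffold protein hnRNP U, had 11.26 on the H2A.B KD array and 10.91 on the control KD array, and its 0.35 was the highest difference of the 56 genes. It was read from the first section, where 3.01% of genes differed by as much. Its second probe set had a control value equal to the knockdown value of a Rab11a probe set nearby and was left out. As deposited it read 9.19 on the H2A.B KD array and 9.49 on the control KD array, a difference of -0.29 in the opposite direction.

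Hnrnpul1, the other U-like gene, had 10.60 on the H2A.B KD array and 10.37 on the control KD array (0.23) on its single probe set. Hnrnpr, related to the RNA-binding protein Syncrip, had 9.91 on the H2A.B KD array and 9.69 on the control KD array (0.22). Its next probe set differed by -0.04, and of 2 dim ones 1 was at 0.0081 and 1 at -0.52, with 4.15 on the H2A.B KD array and 4.67 on the control KD array. These higher values came from the last section, where 44.2% of genes differed by as much as Hnrnpul1.

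Genes of the A type, which bind nascent transcripts and often repress exons, were closer to 0, as was Hnrnpab. Hnrnpa1 had 11.77 on the H2A.B KD array and 11.87 on the control KD array (-0.10), with -0.13 on a nearly as bright probe set and -0.0094 on the third. Hnrnpa2b1 differed by -0.02, with others between -0.03 and 0.08, and Hnrnpa0 by 0.06. Hnrnpa3 had 0.12, with 0.03, -0.11 and -0.22 on dimmer probe sets. Hnrnpab had 13.65 on the H2A.B KD array and 13.65 on the control KD array (-0.0058), and its 5 probe sets spanned -0.07 to 0.05.

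The other hnRNP genes were within 0.1. Hnrnpc, which competes with U2af2 for uridine tracts, differed by 0.06 on a probe set with 13.17 on the H2A.B KD array and 13.10 on the control KD array, and by -0.04 on a dim one. Its brightest control value, 13.84, has a knockdown value in the rising series. Hnrnpd, which binds AU-rich elements, had 0.08 and its relative Hnrnpdl -0.01, with all 4 Hnrnpdl probe sets between -0.01 and 0.05. Dimmer Hnrnpd probe sets were at -0.07 and -0.0026. Hnrnpl had 0.09, with -0.07 on a dim probe set, and Hnrnpll, a regulator of alternative splicing in lymphocytes, 0.09, with 0.02 on the other. Hnrnph1 (0.02), the X-linked Hnrnph2 (-0.0072), Hnrnpk (-0.05) and Hnrnpm (0.03) completed the family, with a dim Hnrnpk probe set at 0.11.

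Probe sets of 1 gene give the only internal repeat that these arrays offer. Of the splicing genes 24 had at least 2 probe sets past the filter. Their differences spanned a median range of 0.084 within a gene, against 0.083 for the 2556 such genes of the whole table, and the range was under 0.1 for 13 of the 24. The widest was 0.83, for Sf3b2. All probe sets lay on the same side of 0 for 10 of the 24, or 41.7%, against 54.5% of all such genes. A difference of a few hundredths between the arrays was therefore no larger than the spread among probe sets. Neither comparison with all such genes was matched for the number of probe sets per gene, on which range and agreement in sign depend.

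Dim probe sets differed more. Of all genes past the filter, each on its brightest probe set, 92.6% differed by less than 0.5. At least 2-fold higher were 0.676% of them, and 1.28% were at least 2-fold lower. Of 106 usable probe sets of splicing genes past the filter, 105 differed by less than 0.5 and 0 by 2-fold. Of the 27 below it, 23 did, and 4 differed by 0.5 or more: Snrpb2, Srsf11, Sf3a1 and Hnrnpr. That is 14.8%, against 14.2% of all single-gene probe sets below the filter, and the plot of difference against intensity shows these 4 at the left.

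**Figure D3:**
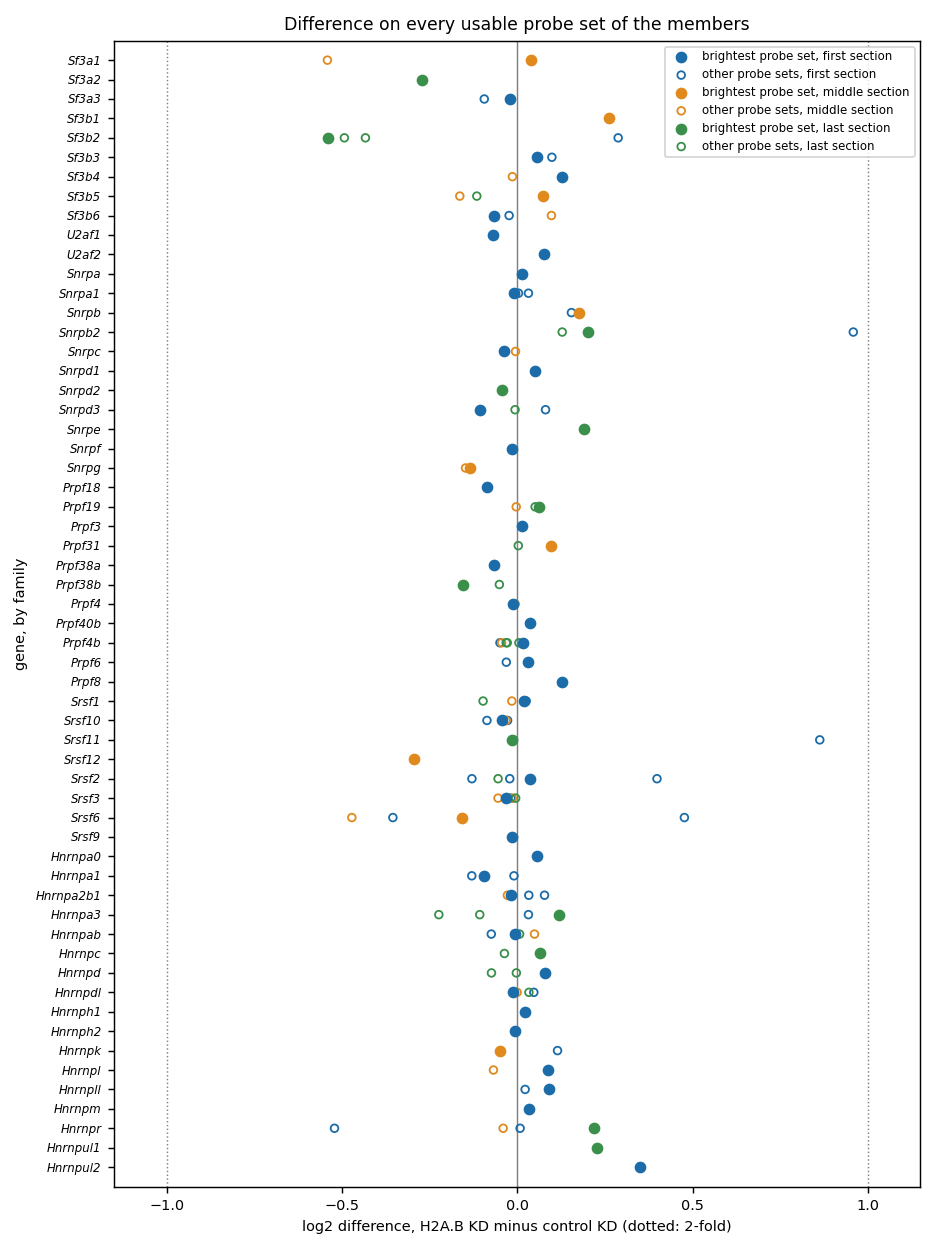
Log2 difference, H2A.B KD minus control KD (x axis), for every usable probe set of each gene (rows), with filled points for the brightest probe set, open points for the others and colours for the section of the table. Dotted lines mark 2-fold, which no point reaches, and Sf3b2 and Srsf6 have points on both sides of 0.

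**Figure D4:**
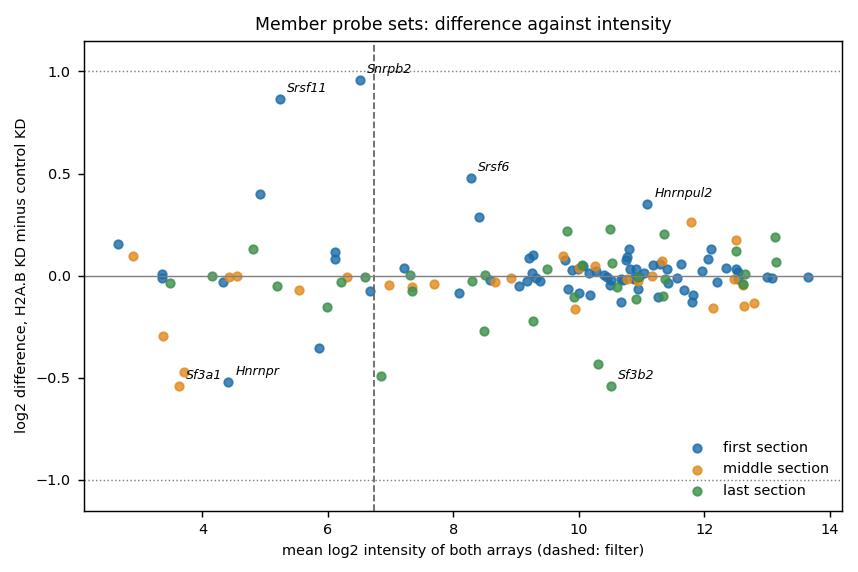
Log2 difference, H2A.B KD minus control KD (y axis), against the mean log2 intensity of both arrays (x axis) for the 133 usable probe sets, coloured by section, with the filter at 6.73 as a dashed line and 2-fold as dotted lines. Above the filter 105 of 106 points lie within 0.5 of 0, and the largest difference, 0.96 for Snrpb2, lies just left of the line. Of all genes past the filter, each on its brightest probe set, 92.6% lie within 0.5.

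Other splicing genes came from 7 lists. Of 124 past the filter, 120 were within 0.5, or 96.8%, against 98.2% of the 56 genes above and 92.6% of all genes. Within 0.1 were 77, or 62.1%, against 73.2% of the 56 and 58.5% of all genes. The median was 0.0054, with 67 above 0 and 57 below. At least 2-fold higher was 1 of the 124, against 0.676% of all genes, and 0 were 2-fold lower, against 1.28%. The list medians ran from -0.01 for Prp19 complex and step factors to 0.04 for the SMN complex and snRNP assembly. That gene was Xab2, of the Prp19-related complex, with 10.85 on the H2A.B KD array and 6.56 on the control KD array, and its dimmer probe sets at -0.68 and 0.33. All 3 are in the middle section, and the difference of 4.28 was the highest of all 8282 genes past the filter. In the same list Plrg1 had 0.24 and Cdc5l -0.17, with 0.36 on the other Cdc5l probe set.

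The minor spliceosome removes a rare class of introns, and its list of 8 genes past the filter had a median of 0.01. Rnpc3, whose product joins U11 and U12, had 8.71 on the H2A.B KD array and 8.08 on the control KD array. The difference of 0.63 came from the first section, and its 2 dimmer probe sets were higher too, by 0.31 and 0.33. Snrnp48 differed by 0.19, with 0.02 and -0.10 on its others, and Pdcd7 by 0.09.

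Partners of the SR proteins and of the U2 snRNP lay on both sides of 0, and most of the larger differences came from the middle and last sections. Scaf1, an SR-related gene, had 7.32 on the H2A.B KD array and 7.94 on the control KD array (-0.62) in the middle section. Scaf11, of the same section, differed by -0.37 and Srrm1, of the last, by 0.29, with Srrm1's 4 other probe sets from -0.34 to 0.32. The list of 15 had a median of 0.0043 and held 6 kinases. Clk1 differed by 0.0094, Clk2 by 0.08, Clk3 by -0.07 and Clk4 by -0.06, with -0.09 on the other Clk4 probe set. Srpk1 differed by -0.14, with -0.21 on its other probe set. Srpk2 differed by 0.05, but its 5 other probe sets were all below 0, from -0.09 to -0.0063. In the list of 13 A complex genes 7 were above 0 and 6 below, with a median of 0.0051. Ddx39b, an RNA helicase, differed by -0.49 on its single, middle-section probe set. The branch point binding protein gene Sf1, of the first section, differed by -0.43, with -0.04 and -0.35 on its others. U2surp, of the last section, differed by -0.39, and all 4 of its probe sets were below 0, between -0.39 and -0.17. The highest of the list was Htatsf1, at 0.28 in the last section, with -0.13 and -0.34 on dim probe sets.

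Among 26 other splicing regulators (median 0.02), Pcbp1, which binds poly(C) RNA, had 12.49 on the H2A.B KD array and 13.05 on the control KD array (-0.56). Its single probe set stands in the middle section. Khsrp differed by -0.35, with 0.11 on its other probe set, and Tial1 by 0.25, with values from -0.47 to 0.34. In the SMN and assembly list of 14, Gemin8 differed by -0.49, with -0.08 and 0.81, Gemin5 by -0.29, with -0.31 and -0.44, and Phax, the export adaptor of snRNAs, by 0.28. In the list of 21 U1 and tri-snRNP proteins (median -0.0094), Lsm6 of the U6 ring differed by 0.34, with 0.38 and 0.61 on dimmer probe sets. Cd2bp2 differed by -0.28, with -0.51 and 0.12, and Usp39 by 0.22, with 0.24. The brightest probe sets of Gemin5, Cd2bp2 and Usp39 stand in the middle section, and those of Tial1, Gemin8 and Phax in the last. Those of Khsrp and Lsm6 stand in the first.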

How the data were processed

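Expression was measured in 1 H2A.B KD and 1 control KD sample. RMA made the deposited values, as the submitters' processing notes say; its version and the scale are not given in the sources used here. The control column as deposited by the authors runs up to 14.5 and was read as log2 intensities, the scale RMA returns. The deposited knockdown column mixes such log2 intensities with values of no known scale, recorded as a score: 616 form a series rising by 1 between rows 2054 and 4710 and 2 others exceed 20. These 618 were left out, as were 1455 control values equal to a value up to 20 rows above. An array gives no read depth, and the number of arrays limits precision.

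Probe sets naming 1 gene (28898 of 45118) were used, with the platform's symbols, and chromosomal positions came from GRCm38.p6. The brightest probe set stood for each of 16563 genes, and 8282 passed the filter. Differences were described by a 2-fold rule, counts and medians, with no test. Python 3.11.15, numpy 2.4.6 and pandas 2.3.3 were used, and the steps were tested on simulated data. Genes were named by a rule: in each family the 3 largest differences past the filter and the brightest gene, any of the 59 genes with a probe set differing by 1 or more on the log2 scale (there was none), the genes nearest the filter, and in each other list up to 3 genes with the largest differences. The SR kinases and Htatsf1 were added after their values were seen. Genes and lists were chosen with earlier results of these data known. Probe set and scaling alternatives were tried.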

Additional observations from a re-analysis of the deposited data

How the results depend on the processing

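With 1 array per group, no replicate could be left out. No paired analysis was possible because each group had 1 array. A value was counted as unchanged when it moved by less than 0.052, the typical SD of differences between probe sets for the same gene (median over genes), and a count when it stayed within 1.5 times. Of 122 settings of counts and medians, 117 met this. Some could hardly fail. With the first section alone the count within 0.5 went from 55 to 40 because the genes past the filter went from 56 to 40. The U2af median of 0.0030 could not move with probe set, filter or section. Both of its genes have 1 probe set, in the first section. The 117 therefore says little about stability. Most of the medians were themselves smaller than 0.052, so meeting the limit says little about their sign. With the median over probe sets, the median over other splicing genes went from 0.0054 to -0.013 and still met it. The hnRNP median went from 0.057 to 0.015 there and met it too. Counts of 2-fold genes were 0 throughout, which says nothing about stability where only probe sets, filter or section changed, since the largest difference of any usable probe set of these genes was 0.96. With the 1.5-fold rule the count was 0 too. The SF3a median of 3 genes moved to -0.25 with the median over probe sets, and to -0.15 both without the middle section and without probe sets whose difference another shares, an alternative chosen after seeing the data. The SF3b median moved to -0.0052 with probe sets without a suffix and to -0.066 without the middle section. Of 218 settings of single genes, 207 met the limit. Many of these could not fail it. A change of filter leaves a gene's value as it is, and a gene with 1 usable probe set has no other to choose. Hnrnpul1, with 1 probe set, kept 0.23 under such settings. Centring on the median shifted all genes alike, by less than the limit. The 207 therefore says little about stability. A difference smaller than the limit, such as -0.0058 for Hnrnpab, could likewise change sign and meet it. Sf3b2 turned to 0.29 with the first section alone, and Srsf6 to 0.48 there and without the middle section. Sf3a1 turned to -0.25 with the median over probe sets, Hnrnpr to -0.04 with probe sets without a suffix, and Srsf2 to -0.02 under both of these settings. Prpf31, Sf3b4, and Sf3b2 and Srsf6 with the median over probe sets, moved without a change of sign. The causes were not tested. Signal over background was not analysed, so differences of dim probe sets are uncertain in size.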
